A study of Xenopus tropicalis with 45 samples.

Results

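In *Xenopus tropicalis* gastrulae at st10.5, 8601 of 52040 Hdac2 peaks (16.5%) were also bound by Hdac2 at st9 and lay outside every replicated Hdac1 peak list. A region was taken when its st10.5 Hdac2 peak shared at least 1 bp with a st9 Hdac2 peak and no base with the replicated Hdac1 peaks of st8, st9 or st10.5. The other Hdac2 peaks of st10.5 comprised 15740 peaks present at both stages with replicated Hdac1 (30.2%), 20578 peaks of st10.5 alone without it (39.5%) and 7121 peaks of st10.5 alone with it (13.7%). The 8601 regions are called Hdac2 regions outside the replicated Hdac1 lists here, and the 15740 peaks are called Hdac1-bound Hdac2 regions.

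The study mapped Hdac1, Hdac2, the maternal transcription factor Sox3 and acetylated histone H3 (pan-H3Kac) by ChIP-seq in wildtype *X. tropicalis* embryos, and measured RNA in explants at st10.5. The Hdac2 lists (st9 and st10.5, untreated whole embryos) came from 1 library each. Hdac1 was mapped in untreated whole embryos at st8, st9 and st10.5 (2 libraries each, combined by the authors into 1 replicated list per stage). It was also mapped in whole embryos at st9 and st10.5 kept in 100 nM TSA or in the solvent DMSO, with 1 library per treatment and stage. Sox3 was mapped in untreated whole embryos at st9 (2 libraries). The pan-H3Kac lists at st10.5 came from untreated whole embryos and from DMSO-treated animal cap (AC, presumptive ectoderm) and vegetal mass (VG, presumptive endoderm) explants (2 libraries each). RNA was read in AC and VG explants of embryos kept in 100 nM TSA or DMSO and, as a separate experiment, in 10 mM VPA or water (2 libraries per group). Embryos entered the inhibitors in early cleavage and were dissected at late blastula. The peak lists hold no read counts, so the depth behind each ChIP-seq value is unknown.

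Hdac1 and Hdac2 are class I histone deacetylases, closely related enzymes that remove acetyl groups from histone tails and sit together in the Sin3, NuRD and CoREST corepressor complexes. TSA (trichostatin A) blocks class I and class II deacetylases, and VPA (valproic acid) blocks mainly class I. Acetylated H3 marks active promoters and enhancers, and in the early *Xenopus* embryo it is laid down around zygotic genome activation.

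The regions carried low Hdac2 enrichment. The Hdac2 fold over input at st10.5, one of the values that chose the regions, had a median of 4.56 (quartiles 3.92 and 5.62, range 1.91 to 15.1), against a median of 8.16 (6.00 and 11.6) at Hdac1-bound Hdac2 regions and 3.97 at peaks of st10.5 alone without Hdac1. At st9 the median fold was 4.43 (3.69 and 5.27), against 5.53 at Hdac1-bound regions. The median −log10 q at st10.5 was 6.85 against 21.0, and the median length was 505 bp against 858 bp. Enrichment was similar at both stages: the median ratio of st10.5 to st9 fold was 1.06 and 57.2% of the regions were higher at st10.5, whereas Hdac1-bound regions had a ratio of 1.45 and 82.5% higher at st10.5. Over all regions the st10.5 and st9 folds had a Spearman rho of 0.215 (n = 8601 regions, all from the same 2 libraries), against 0.521 at Hdac1-bound regions. These folds describe how the lists were cut and carry no test.

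At the limits of the rule the values were continuous. The region with the smallest st9 overlap, chr6:26454968-26455344, shared 3 bp with its st9 peak and had folds of 3.48 at st10.5 and 3.74 at st9. The region nearest to replicated Hdac1, chr3:82444744-82445155, lay 2 bp from an Hdac1 peak and had a fold of 3.79. Just outside the rule, chr3:106821559-106822213 shared 2 bp with an Hdac1 peak at a fold of 4.08, and chr1:68816572-68816860 abutted a st9 peak without a shared base at a fold of 3.18. Replicated Hdac1 was often close by. The median distance to the nearest replicated Hdac1 peak was 6394 bp (quartiles 1613 and 26452 bp), 1501 regions (17.5%) lay within 1 kb of one, and 57.9% lay within 10 kb.

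Most of the regions were nonetheless found in Hdac1 lists that the rule had not used. The Hdac1 list of DMSO embryos at st10.5 held 78.0% of the regions (95% Wilson interval 77.1 to 78.9), against 97.6% (97.4 to 97.8) of Hdac1-bound regions and 61.8% of peaks of st10.5 alone without replicated Hdac1. At st9 the DMSO list held 68.0% (67.0 to 68.9), against 94.9% and 28.7%. Intervals here and below cover counting error only. All 4 Hdac1 lists (DMSO and TSA at both stages) held 3835 regions (44.6%), against 85.2% of Hdac1-bound regions, and none held 710 regions (8.25%, interval 7.69 to 8.86), against 0.775%. Thus the absence of Hdac1 held for the replicated lists and not for the single-library lists, which contain many more peaks: 62985 in DMSO embryos at st10.5 against 22681 in the replicated st10.5 list. Where the DMSO list of st10.5 held a region, the median Hdac1 fold was 5.41, against 9.91 at Hdac1-bound regions.

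**Figure D1:**
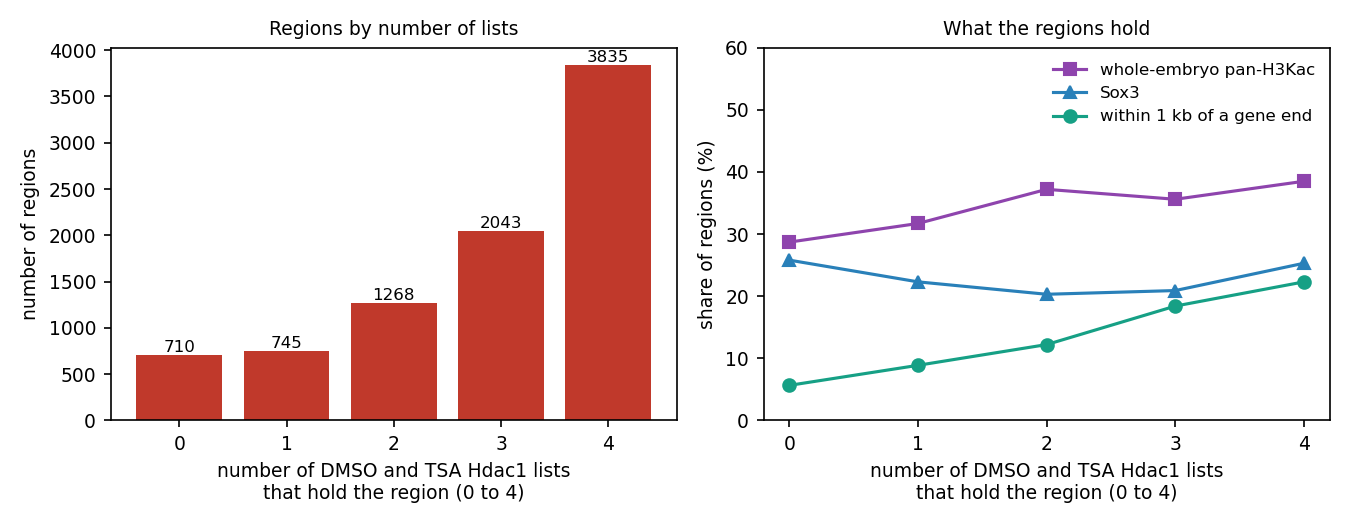
Hdac2 regions outside the replicated Hdac1 lists grouped by how many of the 4 single-library Hdac1 lists (DMSO and TSA, st9 and st10.5) held them, with the number of regions (left) and the share in percent with whole-embryo pan-H3Kac, Sox3 or a gene end (right) on the vertical axes. The share with a gene end within 1 kb climbed with the number of lists, and 44.6% of the regions were in all 4.

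The number of single-library Hdac1 lists that held a region went with its position and less with Sox3. Of the 710 regions in no list, 5.63% had a summit within 1 kb of a gene end, compared with 8.86%, 12.2%, 18.4% and 22.3% of the regions in 1, 2, 3 and 4 lists. The share in the Sox3 list was 25.8%, 22.3%, 20.3%, 20.9% and 25.3% over the same order. The share with whole-embryo pan-H3Kac was 28.7% in no list and 38.5% in all 4, and the median Hdac2 fold was 4.07 and 5.03. Hdac2 fold therefore moved with the number of lists, and its part in these shares was not tested.

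The rule placed no limit on Sox3, acetylation or gene position. The shares with Sox3, with whole-embryo pan-H3Kac and near a gene end were lower than at Hdac1-bound regions. Sharing a list peak needed only 1 bp, and Hdac1-bound regions were longer (median 858 bp against 505 bp). The part of length in the Sox3 and pan-H3Kac shares was not tested. The Sox3 list held 2003 regions (23.3%, interval 22.4 to 24.2), against 49.1% (48.3 to 49.9) of Hdac1-bound regions and 4.28% of peaks of st10.5 alone without Hdac1. Whole-embryo pan-H3Kac covered 3115 regions (36.2%, 35.2 to 37.2), against 66.6% (65.8 to 67.3) and 24.2%. No pan-H3Kac list held 4299 regions (50%, 48.9 to 51.0), against 21.7% and 59.7%. A gene end lay within 1 kb of the summit of 1489 of the 8584 regions on chromosomes (17.3%, 16.6 to 18.2), against 37.5% (36.7 to 38.3) and 13.7%. Peaks of 1 list share a library and are not replicates, so these shares are given without a test. Neighbouring regions could also share a peak: 292 shared their st9 Hdac2 peak with another region, 456 a whole-embryo pan-H3Kac peak, 247 a DMSO Hdac1 peak of st10.5 and 23 a Sox3 peak.

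**Figure D2:**
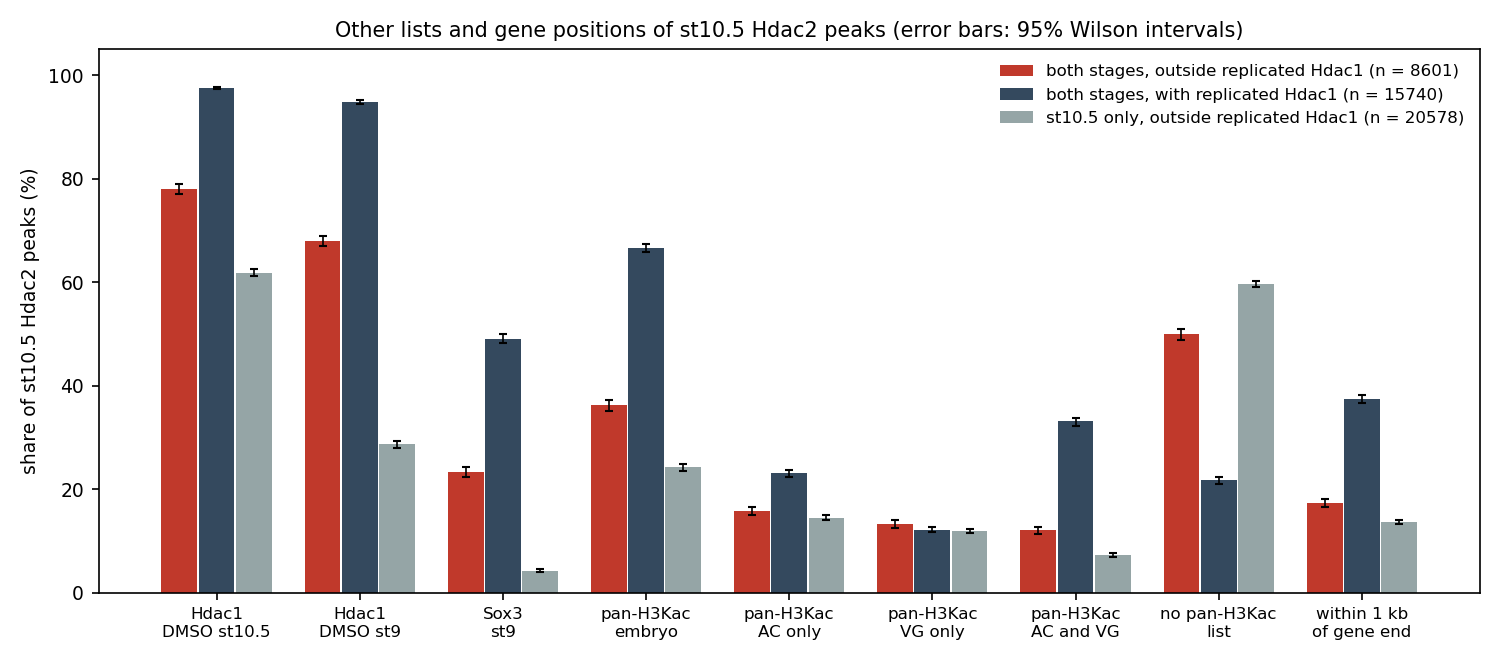
Share of Hdac2 regions (percent, with 95% Wilson intervals) in each readout, for regions outside the replicated Hdac1 lists, for Hdac1-bound regions at both stages and for peaks of st10.5 alone without Hdac1. The classes were cut by replicated Hdac1 peaks, so their shares in the DMSO Hdac1 lists are not independent of the rule. For Sox3, whole-embryo pan-H3Kac and gene ends the first class lay between the other two, at 23.3%, 36.2% and 17.3%.

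Explant acetylation was split between the germ layers. Of the 8601 regions, 1359 (15.8%, interval 15.0 to 16.6) were in the AC list only, 1141 (13.3%, 12.6 to 14.0) in the VG list only and 1039 (12.1%, 11.4 to 12.8) in both. At Hdac1-bound regions the corresponding shares were 23.1%, 12.2% (11.7 to 12.8) and 33.1%. The share acetylated in VG only was thus close in both classes, while the share acetylated in both explants was lower at the regions outside the replicated Hdac1 lists. Of the regions acetylated in both explants 57.9% lay within 1 kb of a gene end, compared with 17% of those acetylated in AC only, 11.8% in VG only and 9.94% of those with no pan-H3Kac peak.

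Hdac2 fold differed between the classes, so the shares were also read within bins of st10.5 fold, which do not match peak length. The Sox3 shares of the classes were within counting error of each other at folds from 4.5 to 11. Between 4.5 and 6 the Sox3 share was 24.5% (23.0 to 26.1, n = 2998) outside the replicated Hdac1 lists and 26.2% (24.6 to 27.9, n = 2683) at Hdac1-bound regions, and between 6 and 8 it was 32.7% (30.2 to 35.3, n = 1320) and 32.5% (31.0 to 34.0, n = 3741). Between 8 and 11 it was 52.9% (47.6 to 58.1, n = 346) and 52.2% (50.6 to 53.8, n = 3626). Outside this range it was lower than at Hdac1-bound regions. Below 3.5 it was 12.7% and 23.1%, between 3.5 and 4.5 it was 17.4% (16.1 to 18.9, n = 2776) and 25.4% (22.8 to 28.1, n = 1024), and above 11 it was 57.4% of 47 regions and 81.3%. The shares with acetylation and gene ends stayed lower than at Hdac1-bound regions in each bin up to a fold of 11. Whole-embryo pan-H3Kac covered 35.9% and 61.9% of regions between 4.5 and 6, and 56.6% and 67.3% between 8 and 11. A gene end lay within 1 kb of 18.3% (16.9 to 19.7) and 52.0% (50.1 to 53.8) between 4.5 and 6, and of 11% (8.11 to 14.7) and 36.5% between 8 and 11.

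**Figure D3:**
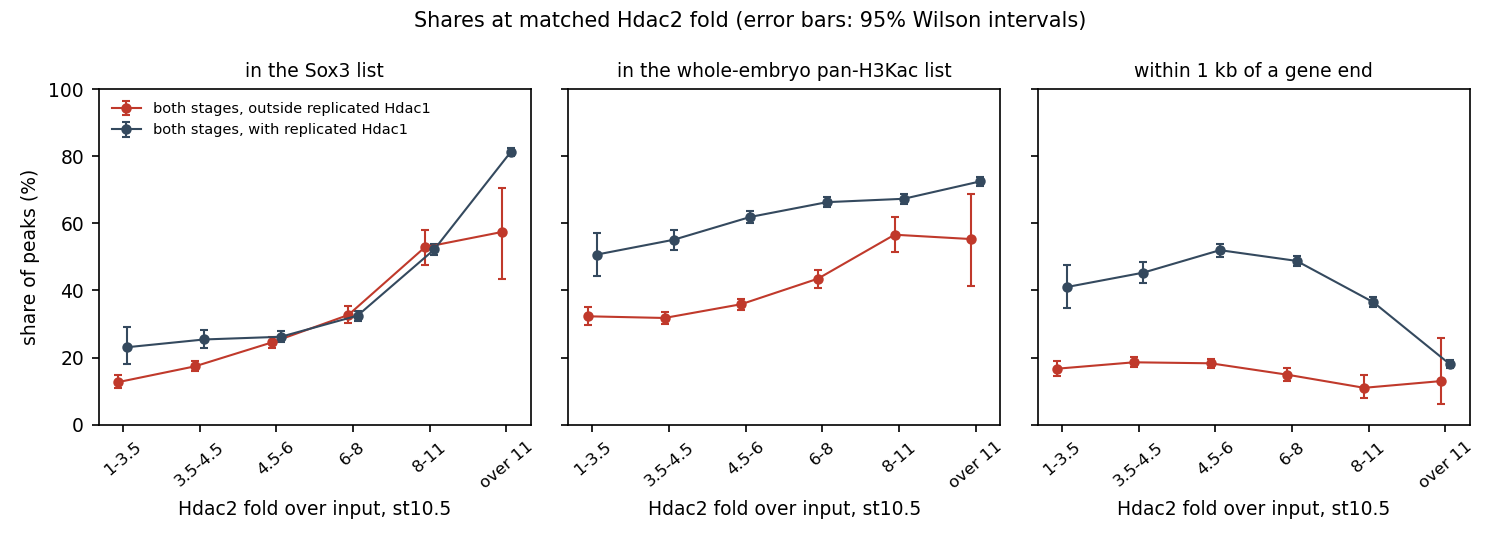
Share of regions (percent, with 95% Wilson intervals) in the Sox3 list, in the whole-embryo pan-H3Kac list and within 1 kb of a gene end, by bin of st10.5 Hdac2 fold, for regions outside the replicated Hdac1 lists and Hdac1-bound regions. The Sox3 shares met between folds of 4.5 and 11, while the gene-end shares stayed apart up to 11, at 18.3% and 52.0% between 4.5 and 6.

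The regions were mixed in kind. The 1489 regions near a gene end were acetylated in whole embryos in 63.8% of cases and in both explants in 40.4%, and 14.6% were in the Sox3 list. The other 7095 were acetylated in whole embryos in 30.5% of cases, in both explants in 6.16%, and 25.2% were in the Sox3 list. Sox3-listed regions lay within 1 kb of a gene end in 10.8% of cases and had whole-embryo pan-H3Kac in 43.0%, against 34.2% of regions without Sox3. A further 3114 regions (36.2%) had no Sox3, no pan-H3Kac peak and no gene end within 1 kb. Regions within 1 kb of a replicated Hdac1 peak had whole-embryo pan-H3Kac in 47.4% of cases and Sox3 in 14.9%, whereas those over 10 kb away had 34.1% and 29.1%.

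The 10 regions with the highest st10.5 fold were mostly Sox3-bound and inside genes. Of these, 8 of 10 were in the Sox3 list, against 57.4% of the 47 regions above a fold of 11 and 23.3% of all regions. A summit inside a gene span was found for 54.3% of all regions and for 56.5% above a fold of 11 (n = 46). The 10 were picked by a value of the rule and are too few to show a trait. The highest, chr8:72844682-72845741, had folds of 15.1 at st10.5 and 9.21 at st9, was in no Hdac1 or pan-H3Kac list, and lay 44800 bp from the nearest annotated gene (LOC116406904) and 42334 bp from replicated Hdac1. The next, chr7:58325900-58326546, lies in the span of *ndufs8*, a subunit of mitochondrial complex I. It had folds of 14.8 at st10.5 and 8.69 at st9, whole-embryo and AC pan-H3Kac folds of 6.74 and 6.06, and no Hdac1 list held it. The region chr1:78071083-78073594 in *ccser1*, which encodes a coiled-coil serine-rich protein, had folds of 14.6 at st10.5 and 10.9 at st9 and an AC pan-H3Kac fold of 12.8. Unlike the first pair, it was in every single-library Hdac1 list, with a fold of 10.9 with TSA and 14.5 with DMSO at st10.5.

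All but 1 of the other 7 lay in gene spans, and chr7:76146922-76147492 (fold 13.8, in the Sox3 list) lay 68697 bp from the nearest gene. The region in *trhde*, a peptidase that inactivates thyrotropin-releasing hormone (chr3:60609412-60610169), had an Hdac2 fold of 14.6 and was in no Sox3 or pan-H3Kac list. The region in *dscaml1*, a neuronal adhesion molecule (chr7:81827096-81828444), had a fold of 14.6 with Sox3 and no pan-H3Kac. The region in *trak1*, an adaptor of mitochondrial transport (chr6:53674949-53675825), had a fold of 14.3 and an AC pan-H3Kac fold of 11.4. Regions in *myo5b*, an unconventional myosin of vesicle transport (chr1:205321850-205322691), and *mtss1.1*, an actin-binding scaffold (chr6:140338345-140339087), had folds of 14.4 and 14.0 with Sox3. The region in *immp2l*, a mitochondrial inner membrane peptidase (chr3:65881997-65883164), had folds of 13.5 at st10.5 and 5.0 at st9 and was in no Hdac1 list. Among regions in no Hdac1 list, one in *adgrg4*, an adhesion G protein-coupled receptor (chr8:68927448-68928218), was acetylated in VG alone, with an Hdac2 fold of 10.9 and a VG pan-H3Kac fold of 8.11.

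The regions occurred singly and in groups. Of the 8601, 6865 had a summit inside or within 10 kb of an annotated gene and were linked to 4641 genes. Of these genes 3296 had 1 region, 851 had 2 and 494 had 3 or more. Replicated Hdac1 was linked to 3116 of the 4641 genes as well (67.1%), leaving 1525 genes with regions of this kind and no linked replicated Hdac1. Each peak was linked to its nearest gene only. Replicated Hdac1 linked to a neighbouring or nested gene could thus still lie inside these genes or within 10 kb of them. The genes with most regions were *ccser1* (12), *kcnt2*, a sodium-activated potassium channel (11), *rabgap1l*, a Rab GTPase-activating protein (11), *cadm1*, a cell adhesion molecule (10), and *bcor*, a corepressor of BCL6 (9). In *ccser1* the Hdac2 fold ranged from 3.18 to 14.6, 7 regions were acetylated in AC and 0 in VG. Beside its 9 regions, *bcor* was linked to 33 entries of the replicated Hdac1 lists, in which a site listed at several stages is counted for each stage. The homeobox gene *uncx* had 9 regions around a span of only 6.05 kb, of which 5 were acetylated in VG and 0 in AC.

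Among windows of 100 kb, 4979 held at least 1 region and 3085 held exactly 1. The 10 fullest windows held from 9 to 13 and included the *hoxc* (13), *hoxb* (12) and *hoxa* (11) clusters. A window at *prdm8*, a histone methyltransferase of neural differentiation, also held 13, of which 8 were acetylated in VG. A window at *cnn2*, an actin-binding calponin, held 10, of which 9 were acetylated in AC and 0 in VG.

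Hox genes, which specify position along the body axis and are mostly silent at these stages, had regions with little acetylation. Of 36 hox genes 26 (72.2%) had a region, against 20.1% of all protein-coding genes, and the 4 clusters held 68 regions among 224 Hdac2 peaks. Replicated Hdac1 was linked to 29 of the 36 (80.6%), against 44.9% of all protein-coding genes. Only 2 hox genes had a region and no replicated Hdac1. Of the 54 regions linked to hox genes, 51 (94.4%) were in no pan-H3Kac list, as were 36 of 51 (70.6%) Hdac1-bound regions at the same genes and 50% of all regions outside the replicated Hdac1 lists. Of the same 54, 52 were in the TSA and 40 in the DMSO list of Hdac1 at st10.5, and 7 were in the Sox3 list. A list of other late regulators, transcription factors of later neural and organ patterning, had similar values: 15 of 23 genes had a region, and 36 of 38 regions (94.7%) had no pan-H3Kac, against 59.2% of Hdac1-bound regions there. Replicated Hdac1 was linked to 22 of those 23 genes.

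Single genes showed the same. *hoxa3* had 5 regions inside its span on chr6, with Hdac2 folds of 3.54 to 5.10, and no pan-H3Kac peak at any of them. *hoxc13* had 3 regions, the highest with an Hdac2 fold of 7.03 (chr2:146205341-146205793) in no Hdac1 list. *pax6*, a regulator of eye and brain formation, had 6 regions with folds of 3.6 to 8.57. *en2*, a midbrain and hindbrain regulator, had 4 with folds of 4.65 to 9.01, and *six3*, a forebrain and eye regulator, had 4 with folds of 4.08 to 8.11. None of these 14 regions of *pax6*, *en2* and *six3* was in a pan-H3Kac list.

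**Figure D4:**
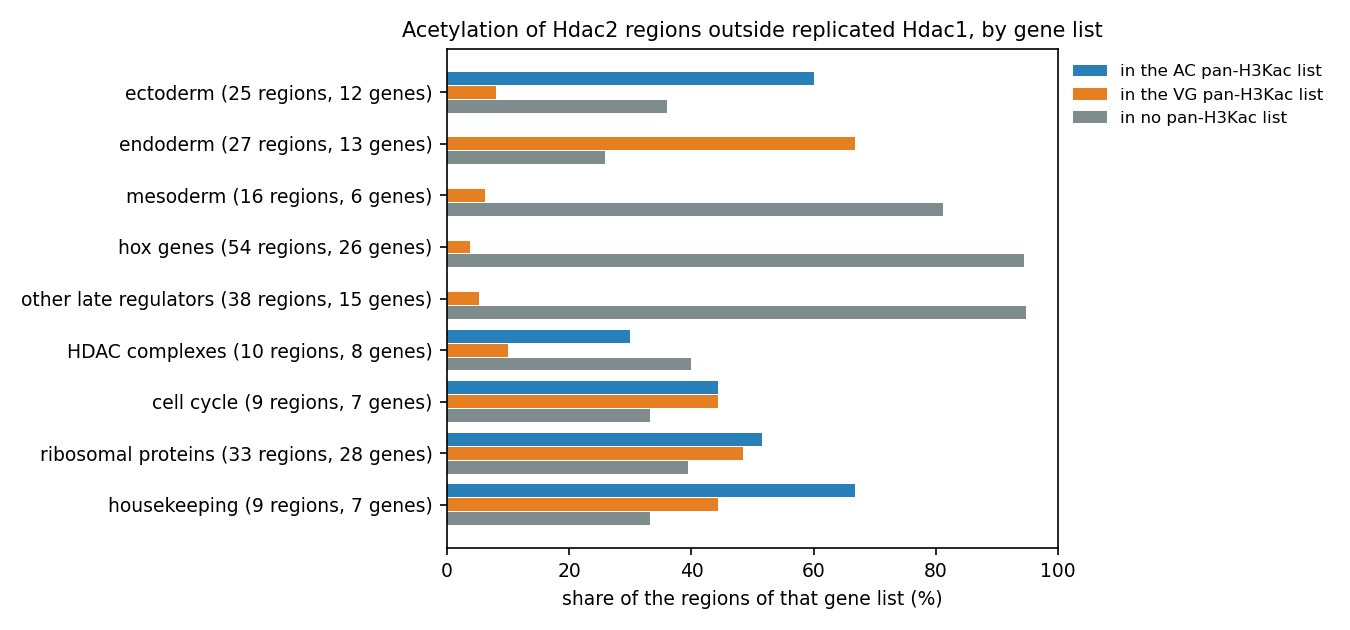
Regions outside the replicated Hdac1 lists linked to each gene list, with the share (percent, horizontal axis) in the AC, the VG or no pan-H3Kac list. Regions of hox genes and other late regulators were almost all in no list (94.4% and 94.7%), those of ectoderm genes were mostly in the AC list and those of endoderm genes mostly in the VG list.

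At ectoderm and endoderm genes the regions were acetylated mainly in the explant of that germ layer. The lists hold known germ-layer genes, some of them the study's own examples of localized pan-H3Kac. This match was thus partly fixed by their choice. Of 14 ectoderm genes 12 had a region, and of their 25 regions 15 were acetylated in AC and 2 in VG. Of 16 endoderm genes 13 had a region, and of their 27 regions 0 were acetylated in AC and 18 in VG. Of 13 mesoderm genes 6 had a region, and 13 of their 16 regions were in no pan-H3Kac list. Every ectoderm, mesoderm and endoderm gene was also linked to replicated Hdac1. Ribosomal protein genes, by a name match that also takes in the ribosomal S6 kinases, had regions at 28 of 90 genes, 14 of them with no replicated Hdac1. Genes of Hdac1/2 complexes had regions at 8 of 37 (21.6%), cell cycle genes at 7 of 33 (21.2%) and housekeeping genes at 7 of 17 (41.2%). Of all protein-coding genes 20.1% had a region, so Hdac1/2 complex and cell cycle genes were near that share. It was 85.7% for ectoderm, 81.2% for endoderm, 46.2% for mesoderm and 31.1% for ribosomal protein genes. Replicated Hdac1 was linked to 44.9% of all protein-coding genes.

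The regions of *grhl3*, a transcription factor of epidermal differentiation, were all acetylated in AC and not in VG. They lay at chr2:80949834-80950842 (Hdac2 fold 10.4, AC pan-H3Kac 8.83), chr2:80954509-80955036 (4.28 and 8.02) and chr2:80956367-80956702 (3.87 and 3.67). The 5 regions of *kctd15*, a regulator of the neural crest boundary, were all in the AC list and 0 in the VG list, with AC pan-H3Kac folds of 4.51 to 20, though some shared 1 pan-H3Kac peak. Conversely the 4 regions of *gata4*, an endoderm and heart regulator, had VG pan-H3Kac folds of 4.18 to 17.8 and none in AC. Of the 4 regions of *nodal2*, a TGF-β ligand of mesendoderm, 3 shared a VG pan-H3Kac peak with a fold of 11.2. The 3 regions of *foxc1*, a forkhead factor of mesoderm, had no pan-H3Kac peak in any list.

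Hdac1 enrichment at the regions was similar in the TSA and DMSO libraries of st10.5, whereas at Hdac1-bound regions it was lower in the TSA library. At st10.5 the TSA and DMSO Hdac1 lists both held 5769 regions (67.1%), the TSA list alone held 946, the DMSO list alone 939, and neither 947. In the 5769 regions the median Hdac1 fold was 5.72 with TSA and 5.45 with DMSO. The median ratio of TSA to DMSO was 1.06 (quartiles 0.807 and 1.43), and 55.8% were higher with TSA. At Hdac1-bound regions the median folds were 8.24 and 10.0, the ratio was 0.794 and 28.1% were higher with TSA (n = 14915). At st9 the ratio was 0.901 in 4421 regions and 0.730 at Hdac1-bound regions. Each treatment and stage had 1 library, so these ratios compare libraries and have no replicate check. The classes were cut by Hdac1 peaks of embryos without TSA, and a ratio needs listing in both libraries. Differences in these ratios between the classes, here and below, are thus not independent of the rule. The study found almost no replicated Hdac1 peaks that differed between TSA and DMSO.

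In several gene lists, picked out after the values were seen, most regions in both st10.5 Hdac1 lists had a higher fold with TSA than with DMSO. Of 54 hox regions, 40 were in both st10.5 Hdac1 lists, 12 in the TSA list alone, 0 in the DMSO list alone and 2 in neither. The fold was higher with TSA in 32 of the 40, with medians of 6.60 with TSA and 4.79 with DMSO and a median ratio of 1.45, against 1.12 at Hdac1-bound regions of hox genes. Of those Hdac1-bound regions 70.6% were higher with TSA, as were 63.5% at other late regulators (ratio 1.12). Over all Hdac1-bound regions it was 28.1%. The lean to TSA at these 2 lists was thus not particular to regions outside the replicated Hdac1 lists. At other late regulators 26 of 30 were higher with TSA (medians 7.90 and 5.24, ratio 1.36), at ectoderm genes 12 of 14 (ratio 1.34), at endoderm genes 11 of 16 (ratio 1.22) and at mesoderm genes 6 of 10 (ratio 1.06). The mesoderm value was near that of all the regions (55.8%, ratio 1.06). The remaining lists were near or below it: Hdac1/2 complexes 5 of 9 (1.03), ribosomal protein genes 14 of 26 (1.04), housekeeping genes 2 of 6 (0.868) and cell cycle genes 2 of 6 (0.755). At st9 the same counts were 18 of 28 at hox genes (ratio 1.19), 20 of 26 at other late regulators (1.18), 3 of 9 at ectoderm genes (0.958), 8 of 11 at endoderm genes (1.13) and 4 of 9 at mesoderm genes (0.931). They were 4 of 6 at Hdac1/2 complexes, 3 of 16 at ribosomal protein genes, 0 of 3 at housekeeping genes and 0 of 6 at cell cycle genes. Over all regions in both st9 Hdac1 lists, 37.1% were higher with TSA (ratio 0.901), against 18.5% of Hdac1-bound regions (0.730). At Hdac1-bound regions of hox genes the st9 count was 21 of 42 (ratio 1.01). At those of other late regulators it was 33 of 68 (0.981). Among the hox regions at st10.5, for instance, chr6:42168354-42168899 in *hoxa3* had an Hdac1 fold of 10.9 with TSA and 4.27 with DMSO. Neighbouring regions share peaks, so they are not independent.

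Regions in the TSA list alone also differed from those in the DMSO list alone. Whole-embryo pan-H3Kac covered 20.6% of the 946 TSA-only regions and 47.7% of the 939 DMSO-only regions, and 64.3% and 40.1% were in no pan-H3Kac list. Their Sox3 shares were 25.8% and 22.0%.

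RNA was compared at the 1525 genes linked, as nearest gene, to these regions and to no replicated Hdac1 peak. Their median TPM, by library, lay between 3.74 and 7.29, below genes with replicated Hdac1 (12.1 to 18.3) and above all genes of the files (0.22 to 0.50). Library totals ranged from 16892279 to 54350322 estimated counts. Ribosomal RNA genes took 39.4% of AC TSA replicate 2 and 35% of AC DMSO replicate 2, but 0.73% to 4.38% of the other libraries. The explants carried their markers: all 8 VG markers were higher in every VG library than in every AC library, and 6 of 7 AC markers were higher in every AC library, *dlx5* being the exception. The VG markers summed to 25.1 to 249 TPM in AC libraries and 4366 to 6679 TPM in VG libraries. Markers of the marginal zone (presumptive mesoderm) summed to 5.65 to 119 TPM in AC libraries and 303 to 680 TPM in VG libraries. Of these 5, 3 were higher in every VG library in the TSA experiment and all 5 in the VPA experiment. The VG explants thus also carried RNA of mesoderm markers. A gene was called at an edgeR quasi-likelihood adjusted p under 0.05 (Benjamini-Hochberg over all genes tested) and a fold above 2. P-values measure only the spread between these samples, since the labels do not say that replicates came from separate clutches. In such bulk samples, fewer cells of a type and less RNA per cell cannot be told apart.

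With TSA in AC, 12 of the 1133 tested genes were higher and 6 were lower than with DMSO (1.06% and 0.530%). Among all 15232 genes tested 1.29% were higher and 1.00% lower, so that the 18 genes called in either direction made 1.59%, against 2.30% of all genes. With VPA in AC, 11 of 1124 were higher and 7 lower than with water (0.979% and 0.623%), against 1.36% and 0.745% of 15166 genes, and in either direction the share was 1.60%, against 2.10% of all genes. The median log2 fold changes were 0.01 and 0.02, against 0.00 and 0.01 over all genes. The shares among these genes were thus near or below those of all genes. In VG, 0 genes were called by edgeR with TSA (all genes 0% higher and 0.0131% lower) and 0 with VPA (all genes 0% in either direction). At an unadjusted p under 0.05, 15 were higher and 18 lower with TSA in VG, and 47 and 40 with VPA, and DESeq2 called 2 and 5 with TSA and 11 and 6 with VPA. Over all genes in VG, edgeR called 2 with TSA and 0 with VPA. An unadjusted p under 0.05 was reached by 276 higher and 353 lower genes with TSA and by 707 and 633 with VPA. DESeq2 called 93 and 116 with TSA and 176 and 189 with VPA. The study, with edgeR at the same limits, reported many affected genes in VG as well as AC. The source of this difference was not tested, and the few edgeR calls here do not show that VG RNA was unchanged. Leaving out any 1 library of the TSA experiment brought the 18 calls in AC to between 0 and 8, and any 1 of the VPA experiment to between 0 and 5. With the replicate number as a block, 69 genes were called with VPA in AC (6.14%, against 6.57% of all genes) and 10 in VG (0.890%, against 1.59%), and 22 with TSA in AC (1.94%, against 2.80%). A block within each tissue, chosen after seeing the data, gave 101 with TSA in AC (8.91%, against 11% of all genes). Without ribosomal RNA genes there were 19 calls with TSA and 18 with VPA in AC.

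In AC, 5 of the genes without replicated Hdac1 were called in the same direction with both inhibitors, the rule by which they were picked. The matching count over all genes tested is not given here, so the 5 have no baseline. The pathway inhibitor *sufu*, which restrains Hedgehog signalling, had 23.8 and 21.8 CPM with TSA, against 67.2 and 73.4 CPM with DMSO (log2 fold change −1.63, SE 0.25, adjusted p = 0.0276). It had 26.3 and 25.3 CPM with VPA, against 76.3 and 59.7 CPM with water (−1.40, SE 0.16, adjusted p = 0.0305). Neither pair of groups overlapped, which was a condition for naming a gene by its largest change. Its region, chr7:29272053-29273033, lay 7303 bp from the gene, with an Hdac2 fold of 8.25 and pan-H3Kac in whole embryos only.

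A further 3 genes were lower with both inhibitors. *slc13a3*, a dicarboxylate transporter, had 0.160 and 0.153 CPM with TSA, against 3.08 and 2.43 CPM with DMSO (−4.10, SE 0.61, adjusted p = 0.0267), and 0.163 and 0.330 CPM with VPA, against 1.82 and 2.86 CPM with water (−3.19, SE 0.52, adjusted p = 0.0384). The treated levels of *slc13a3* were near the floor, so the size of its folds is uncertain. *mplkip*, a partner of the mitotic kinase Plk1, had 23.3 and 20.2 CPM with TSA, against 62.0 and 58.8 CPM with DMSO (−1.47, SE 0.19, adjusted p = 0.0188), and 35.8 and 42.7 CPM with VPA, against 94.5 and 72.3 CPM with water (−1.09, SE 0.19, adjusted p = 0.0446). *paxbp1*, which binds Pax3 and Pax7, had 59.9 and 55.2 CPM with TSA, against 126 and 111 CPM with DMSO (−1.04, SE 0.17, adjusted p = 0.0364), and 77.9 and 78.1 CPM with VPA, against 186 and 146 CPM with water (−1.09, SE 0.17, adjusted p = 0.0384). In each of these the groups did not overlap. The naming rule required this of *slc13a3* with both inhibitors, of *mplkip* with TSA and of *paxbp1* with VPA. The region of *paxbp1* (chr2:15089244-15090847, Hdac2 fold 5.69) had strong acetylation in all 3 lists, with pan-H3Kac folds of 33.3 in whole embryos, 22.5 in AC and 21.6 in VG, whereas that of *slc13a3* was acetylated in VG alone.

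The gene *ankdd1a*, an ankyrin-repeat protein, was higher with both. It had 31.5 and 19.3 CPM with TSA, against 2.35 and 2.90 CPM with DMSO (3.27, SE 0.40, adjusted p = 0.0156), and 20.2 and 29.7 CPM with VPA, against 3.12 and 6.44 CPM with water (2.38, SE 0.39, adjusted p = 0.0384). Its region, chr3:116181340-116181831, lay 143 bp from the gene, with an Hdac2 fold of 6.11 and pan-H3Kac in all 3 lists. Over 14 alternatives, among them the removal of each library, *ankdd1a* was called in 11 with TSA and 6 with VPA, *slc13a3* in 10 and 6, *sufu* in 8 and 8, and *mplkip* and *paxbp1* in 6 and 6. All of the lost calls of these genes came from leaving out 1 library, and the highest adjusted p was 0.275, for *mplkip* with VPA.

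**Figure D5:**
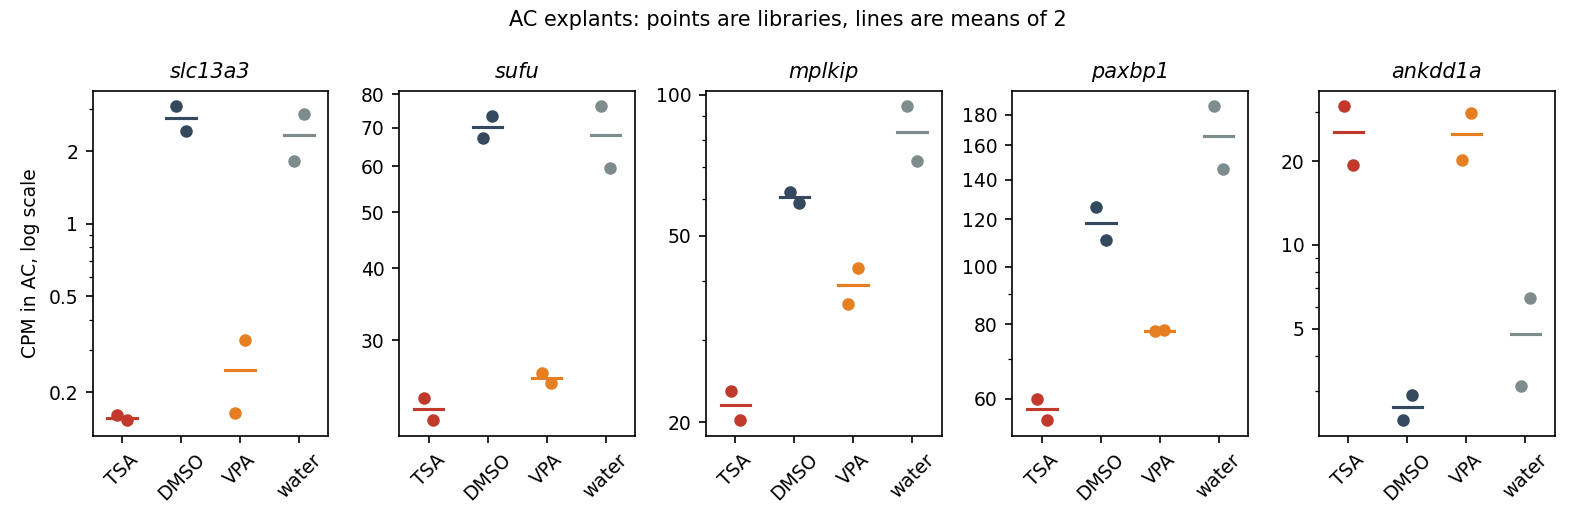
CPM (log axis) of the 5 genes with Hdac2 regions outside the replicated Hdac1 lists and no replicated Hdac1 that were picked because they were called in the same direction with both TSA and VPA in AC, with a point for each library. *sufu*, *slc13a3*, *mplkip* and *paxbp1* were lower and *ankdd1a* was higher in both treated groups.

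Other genes were called in 1 of the inhibitor comparisons, and whether the effects of the inhibitors differ was not tested. With TSA in AC, *hsp70*, a stress chaperone with near-identical copies that make its count uncertain, had 26.6 and 61.3 CPM with TSA and 0.695 and 1.71 CPM with DMSO (log2 fold change 5.16, SE 0.66, adjusted p = 0.0176). *birc2*, an inhibitor of apoptosis, had 26.1 and 11.1 CPM with TSA and 95 and 123 CPM with DMSO (−2.55, SE 0.45, adjusted p = 0.0399). *slc38a2*, an amino acid transporter, had 22.3 and 27 CPM with TSA and 0.478 and 2.36 CPM with DMSO (4.07, SE 0.69, adjusted p = 0.0364). Within each gene the treated and control libraries did not overlap, as the naming rule required. The siamois-related homeobox gene *sia2* had 2.12 and 0.895 CPM with TSA and 0 and 0.0518 CPM with DMSO, a level too low for a fold to be given. With VPA in AC, *ttc5*, a cofactor of p53, had 16.8 and 21.2 CPM with VPA and 3.33 and 3.04 CPM with water (2.57, SE 0.25, adjusted p = 0.0235). *kcna4*, a potassium channel, had 3.34 and 3.89 CPM with VPA and 0.573 and 0.681 CPM with water (2.52, SE 0.43, adjusted p = 0.0428). Here too the libraries did not overlap, by the same rule. *pigg*, an enzyme of GPI anchor synthesis, had 7.08 and 6.50 CPM with VPA and 1.09 and 1.68 CPM with water, and *adgrf1*, an adhesion G protein-coupled receptor, had 1.02 and 1.09 CPM with VPA and 5.68 and 4.81 CPM with water.

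Between the germ layers, AC was compared with VG in the control explants, which are the same libraries as the DMSO and water controls above. With DMSO 75 of the 1133 genes were higher and 144 lower in AC (6.62% and 12.7%), against 9.67% and 12.1% of all genes, which in either direction was 19.3%, against 21.7%. With water 43 of 1124 were higher and 99 lower (3.83% and 8.81%), against 6.05% and 8.89%, which in either direction was 12.6%, against 14.9%. Leaving out 1 library brought these 219 and 142 calls to between 109 and 209 and to between 63 and 131, with over 1.5 times fewer without either VG DMSO replicate (109 and 111), AC DMSO replicate 2 (145), either AC water replicate (63 and 80) or VG water replicate 1 (88). Genes linked to a region acetylated in AC only, whether or not replicated Hdac1 was also linked, were higher in AC in 20.5% of cases and lower in 10.4% with DMSO, and in 17.8% and 8.37% with water. Genes linked to a region acetylated in VG only were higher in AC in 7.84% and lower in 19.6% with DMSO, and in 4.86% and 20.9% with water. Among genes with no replicated Hdac1 the AC-only set was not tilted to AC: it had 7.26% higher and 14.5% lower with DMSO (n = 179), while the VG-only set had 7.03% and 16.4% (n = 128). With water the AC-only set had 6.82% higher and 10.8% lower (n = 176), and the VG-only set had 2.34% and 20.3% (n = 128). The 2 sets were thus close with DMSO and further apart with water.

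Of the 13 germ-layer genes with 3 or more regions, 8 had regions acetylated in 1 explant and not in the other. Of these 8, *grhl3*, *kctd15* and *sox2* were higher in AC and *gata4*, *gata5*, *foxa4*, *mix1* and *nodal2* lower in AC with both controls, the side of their acetylation in each case. The match was partly fixed by the choice of known germ-layer genes. *grhl3*, *sox2*, *gata4*, *gata5* and *foxa4* are also markers of the dissection used here. The study shows *kctd15*, *sox2*, *foxa4* and *mix1* among its examples of localized pan-H3Kac. The other 5 had no region acetylated in AC or VG (*foxc1*, *foxd3*, *hhex* and *tbxt*) or 1 acetylated in both (*hes4*, a Hairy-family repressor). Of those, *foxc1* and *hhex* were lower in AC with both controls, *tbxt*, the mesoderm factor Brachyury, was lower and *hes4* higher with water alone, and *foxd3*, a forkhead repressor, was not called. *grhl3* had 444 and 442 CPM in AC against 3.35 and 3.01 CPM in VG with DMSO (log2 fold change 7.12, SE 0.39, adjusted p = 1.6e-04). *kctd15* had 23.2 and 35.6 CPM in AC against 0.0465 and 0.235 CPM in VG (adjusted p = 9.6e-04), a VG level too low for a fold to be given. *gata4* had 1.52 and 3.65 CPM in AC against 662 and 600 CPM in VG (−7.90, SE 0.46, adjusted p = 1.9e-04). With water the log2 fold changes of *grhl3*, *kctd15* and *gata4* were 5.67, 4.88 and −9.53, all called. All 16 endoderm genes were lower in AC in both experiments, and 12 of 14 ectoderm genes with DMSO and 13 of 14 with water were higher. These lists, too, hold genes picked for their known germ layer.

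With the inhibitors, part of the ectoderm genes fell in AC: 6 of 14 were lower with TSA (5 of the 12 with a region) and 6 with VPA (all with a region), against 1.00% and 0.745% of all genes tested. The median log2 fold changes over the 14 genes were −2.09 and −1.47, against 0.00 and 0.01 over all genes tested. The list holds *bambi*, *dlx5*, *foxi4.2*, *hes4*, *irx2* and *tfap2a*, which the study lists as lower in AC with the inhibitors in these same libraries. Apart from *grhl3* and *kctd15*, every called ectoderm gene was among them. These counts and medians were thus partly fixed by how the list was made, and the all-gene values are no independent baseline for them. *grhl3* had 134 and 71.1 CPM with TSA against 444 and 442 CPM with DMSO (−2.11, SE 0.30, adjusted p = 0.0240), and 146 and 214 CPM with VPA against 480 and 428 CPM with water (−1.34, SE 0.22, adjusted p = 0.0384). *kctd15* had 2.28 and 1.59 CPM with TSA against 23.2 and 35.6 CPM with DMSO (−3.93, SE 0.62, adjusted p = 0.0296), and 2.28 and 6.17 CPM with VPA against 41.8 and 34.1 CPM with water (−3.16, SE 0.58, adjusted p = 0.0474). The neural and pluripotency factor *sox2*, which also had 3 regions, did not pass the test, with 320 and 148 CPM with TSA against 395 and 272 CPM with DMSO (−0.51, SE 0.44, adjusted p = 1.00). The corepressor gene *bcor*, with its 9 regions, had 47.1 and 56.1 CPM with TSA against 131 and 130 CPM with DMSO (−1.33, SE 0.19, adjusted p = 0.0248). With VPA it had 73.7 and 78.4 CPM, against 102 and 155 CPM with water, and did not pass the test (−0.76, SE 0.22, adjusted p = 0.147).

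Some mesoderm and endoderm genes rose in AC. Of 12 mesoderm genes tested 5 were higher with TSA and 2 with VPA (medians over the list 2.15 and 1.25, against 0.00 and 0.01 over all genes). Over all genes 1.29% were higher and 1.00% lower with TSA, and 1.36% higher and 0.745% lower with VPA. The mesoderm list holds *foxc1*, *hhex*, *osr1* and *snai1*, which the study lists as higher in AC with the inhibitors in these same libraries. Apart from *wnt8a* with TSA, every called mesoderm gene was among them. The mesoderm counts and medians were thus partly fixed by how the list was made. Of 16 endoderm genes 3 were higher and 1 (*pnhd*, a secreted cystine-knot protein) lower with TSA and 1 was higher with VPA (medians 1.05 and 1.36). *foxa4*, *sox17a* and *mixer* among these are also VG markers, and the part of VG cells in the AC explants was not tested. *foxc1* had 11.8 and 11.9 CPM with TSA against 2.48 and 2.82 CPM with DMSO in AC (2.16, SE 0.25, adjusted p = 0.0131). *hhex*, a homeobox factor of anterior endoderm, had 4.44 and 4.60 CPM with TSA against 0.434 and 0.958 CPM with DMSO (2.63, SE 0.37, adjusted p = 0.0230). *foxa4*, a forkhead factor of endoderm and axial mesoderm, had 30.7 and 8.41 CPM with TSA against 2.48 and 1.5 CPM with DMSO (3.31, SE 0.62, adjusted p = 0.0477). With VPA in AC, *foxc1*, *hhex* and *foxa4* did not pass the test (2.74, 2.81 and 1.74, edgeR adjusted p = 0.0589, 0.140 and 0.302). The TSA levels stayed far below VG levels for *hhex* (136 and 201 CPM in VG with DMSO) and *foxa4* (349 and 359 CPM). *gata4*, whose 4 regions were acetylated in VG, had 3.56 and 2.94 CPM with TSA against 1.52 and 3.65 CPM with DMSO in AC and did not pass the test (0.29, SE 0.37, adjusted p = 1.00).

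A few hox genes rose in AC. Of 25 tested 1 (*hoxa9*) was higher with TSA, against 1.29% of all genes tested, and of 27 tested 3 (*hoxb2*, *hoxc3* and *hoxc13*) were higher with VPA, against 1.36% of all genes, with median log2 fold changes over the tested hox genes of 2.46 and 1.26, against 0.00 and 0.01 over all genes. All of the called hox genes had a region, as did 17 of the 25 tested with TSA and 20 of the 27 tested with VPA. Over the tested hox genes with a region the medians were 1.97 and 1.25. Hox genes are mostly silent at these stages, and the part of low counts in these medians was not tested. Genes of Hdac1/2 complexes had median log2 fold changes of −0.12 with TSA and −0.10 with VPA in AC, and ribosomal protein genes had −0.30 and −0.18.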

How the data were processed

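ChIP-seq peak lists and RNA-seq tables of *X. tropicalis* embryos, as deposited by the authors, were used. Tool versions come from the submitters' processing notes and the study's methods. Reads were mapped to genome v10.0 with Bowtie2 2.4.4 (ChIP-seq) or STAR 2.7.3a (RNA-seq). The authors called peaks with MACS2 2.7.1, and the deposited columns used here are the fold over input (a ratio), the −log10 q-value and, for Sox3, a score. Replicated Hdac1 and Sox3 lists passed an irreproducible discovery rate of 0.05, the pan-H3Kac lists hold peaks found in both replicates, and Hdac2 and the DMSO and TSA Hdac1 lists come from 1 library each. Expected counts and TPM were deposited by the authors from RSEM 1.3.3. The RNA library kit named in the labels does not mark strand, so overlapping genes cannot be told apart. Per the study's methods, the second replicates of the explant pan-H3Kac ChIP-seq were downsampled by the authors to even out depth.

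Peaks were intersected in Python 3.11.15 (pandas 2.3.3, numpy 2.4.6, scipy 1.17.1) with at least 1 bp shared. Summits were linked to genes of the RefSeq annotation of the same v10.0 assembly, which gives gene spans without strand or exons. Each summit was linked only to its nearest gene, where it lay inside the span or within 10 kb. Ties went to the shorter span. A gene end is either end of any span. Rows with duplicated tRNA symbols (2362) were left out, leaving 26496 genes, and 26531 of 28850 expression IDs matched a symbol. Expected counts were rounded to whole numbers and tested with edgeR 4.0.16 (TMM, filterByExpr, quasi-likelihood) in R 4.3.3, over the 8 libraries of each inhibitor experiment with a mean per group. Contrasts are treated over control and AC over VG. CPM uses TMM-scaled library sizes. DESeq2 1.42.0 was an alternative. Scripts were tested on simulated data. Shares have Wilson intervals, and peaks of a list are not replicates, so no test was run across peaks. Figures used matplotlib 3.10.9.

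Named regions are the 10 with the highest st10.5 fold, the 5 highest in no single-library Hdac1 list and those at the limits of the rule. Named genes are the 5 with most regions and list genes with 3 or more regions. Genes without replicated Hdac1 were also named if called with both inhibitors in the same direction. In each inhibitor comparison, up to 4 of them per direction with the largest change were named too. For a largest change, both treated libraries had to lie above or below both control libraries. Genes and windows outside this rule were chosen after their values were seen. The regions and lists were chosen with earlier results of these data known. No genome or sequence tables were used here, so no sequence is shown.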

Additional observations from a re-analysis of the deposited data

Results flagged for a closer look

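The TSA effect on *foxc1*, a forkhead factor of mesoderm with 3 Hdac2 regions outside the replicated Hdac1 lists and no pan-H3Kac peak at them, differed between the explants. In AC it had 11.8 and 11.9 CPM with TSA, against 2.48 and 2.82 CPM with DMSO (log2 fold change 2.16). In VG it had 12.5 and 11.7 CPM with TSA, against 22.2 and 25.4 CPM with DMSO (−0.98, SE 0.24, adjusted p = 0.374, not called). The TSA levels of AC and VG nearly coincided. The difference of the log2 fold changes, AC minus VG, was 3.14 (edgeR interaction adjusted p = 0.0486). In the VPA experiment the effects also lay in opposite directions, at 2.74 in AC and −1.11 in VG, with an interaction of 3.85 that did not pass the test (adjusted p = 0.461). Over all genes the interaction was called for 13 of 15232 with TSA and 1 of 15166 with VPA.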

How the results depend on the processing

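Where sharing required 50% of the shorter peak, the median Hdac2 fold was 4.66, the DMSO Hdac1 lists held 66.4% (st9) and 76.6% (st10.5), no Hdac1 list held 9.71%, whole-embryo pan-H3Kac covered 28.1%, and 12.6% were acetylated in AC alone, 10.8% in VG alone and 9.94% in AC and VG. With Hdac2 peaks of −log10 q of at least 10 at both stages, 679 regions were left, with a median fold of 6.92, 83.5% and 88.4% in the DMSO lists, 5.30% in no Hdac1 list, 55.2% with Sox3, 47.3% with whole-embryo pan-H3Kac, 20.9% acetylated in AC alone, 21.4% in VG alone and 11.3% in AC and VG, and 10.0% near a gene end. When each list was restricted to peaks over its median fold, the rule took 4570 regions, with a median fold of 6.62. Of these, 70.2% were in the st9 DMSO list, 24.2% had Sox3 and 38.7% had whole-embryo pan-H3Kac. In VG alone 12.5% were acetylated, in AC and VG 13.8%, and 25.0% lay near a gene end. Adding the DMSO Hdac1 lists to the rule left 1322 regions. The limit on −log10 q and the added DMSO lists keep fewer peaks by construction. Asking for 50% sharing, or cutting each list at its median fold, also loosens the exclusion of replicated Hdac1. Those sets can thus hold peaks that the main rule leaves out, and they are not stricter versions of it.

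Calls among genes with these regions and no replicated Hdac1 depended on the test. DESeq2 called 60 with TSA in AC, 7 with TSA in VG, 55 with VPA in AC and 17 with VPA in VG (5.30%, 0.618%, 4.89% and 1.51% of those tested, against 6.24%, 1.37%, 5.94% and 2.41% of all genes). Without a filter on low counts, 35 were called with VPA in AC and 1 in VG. The labels' replicate numbers were not known to mark a shared clutch: same-numbered libraries of 1 tissue deviated together in the TSA experiment (r = 0.8 in AC, 0.775 in VG) but not across tissues (−0.0951 to −0.0509), and in the VPA experiment all did (0.461 to 0.631). The replicate block gave 22 calls with TSA in AC, 0 in VG, 69 with VPA in AC and 10 in VG (1.94%, 0%, 6.14% and 0.890%, against 2.80%, 0%, 6.57% and 1.59% of all genes). A block within each tissue, chosen after seeing the data, gave 101, 12 and 55 calls with TSA in AC, TSA in VG and VPA in AC (8.91%, 1.06% and 4.89%, against 11%, 1.73% and 5.43%). Leaving out 1 library gave 0 to 8 calls with TSA in AC, 0 to 0 with TSA in VG, 0 to 5 with VPA in AC, 0 to 0 with VPA in VG, 109 to 209 between AC and VG with DMSO (109 and 111 without VG DMSO replicates 1 and 2, 145 without AC DMSO replicate 2) and 63 to 131 with water (63 and 80 without AC water replicates 1 and 2, 88 without VG water replicate 1). The named genes of the AC inhibitor comparisons lost their call mostly when 1 library was left out (*sia2*, *slc38a2* and *foxa4* with TSA also under the replicate block). No called result of a named gene changed direction under any alternative run, and results that were not called were not checked for this. With 2 libraries per group and no read counts behind the peaks, weak peaks and small changes could not be resolved.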
